A study of Mus musculus with 18 samples.

Results

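The 10 genes described here encode the machinery by which a cell shows fragments of its own proteins at its surface on major histocompatibility complex (MHC) class I molecules. They were chosen by name from a table of 19320 genes: the heavy chains H2-K1 and H2-D1, their light chain B2m, the peptide transporter and loading genes Tap1, Tap2 and Tapbp, the immunoproteasome subunits Psmb8, Psmb9 and Psmb10, and the transactivator Nlrc5. Poly(A) RNA of the spleen was sequenced in 18 libraries from male ICR mice aged 10 weeks, 3 libraries for each of 6 groups. Con was the control group without AOS or STZ, and A10 animals were dosed with 10 mg per kg of alginate oligosaccharide (AOS), short sugar chains cut from a polymer of brown algae. STZ animals had 1 injection of streptozotocin, a toxin of the insulin-producing cells that is used to model type 1 diabetes, and STZ-A10 received STZ and AOS. A10-FMT and Con-FMT received STZ and then gut microbiota by mouth (fecal microbiota transplantation, FMT). The donors of A10-FMT had been dosed with AOS and those of Con-FMT were controls, and the material was pooled over the donors of a group. ICR is an outbred stock, so the animals may differ in their H2 alleles, which were not analysed here. The labels number the 3 libraries of a group without saying that each came from a separate animal, so the p-values measure the spread between libraries.

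In the class I pathway the proteasome cuts proteins in the cytosol, the transporter of Tap1 and Tap2 carries the peptides into the endoplasmic reticulum, tapasin (Tapbp) holds the transporter to the empty class I molecule, and the heavy chain folds around a peptide together with beta-2-microglobulin (B2m). Psmb8, Psmb9 and Psmb10 replace the constitutive catalytic subunits Psmb5, Psmb6 and Psmb7 and give the immunoproteasome, which is abundant in lymphoid tissue. Interferon-gamma, acting in part through IRF1, raises the whole set, and NLRC5 binds to a shared promoter module that is also held by RFX, CREB and NF-Y proteins.

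Of the 10 genes, 7 lie on chromosome 17, within the H2 complex, Psmb10 and Nlrc5 lie on chromosome 8 and B2m on chromosome 2 (GENCODE annotation, GRCm38). The stretch before the transcription start is printed for 4 of them, because the 10 genes moved together in these libraries. In addition, most of the stretch of Tap1 also precedes the RefSeq start of Psmb9. Each run holds the 250 bases before the RefSeq start (GRCm38.p6), read on the strand of the gene: H2-K1 at chr17:34000348-34000597 on the minus strand, H2-D1 at chr17:35262844-35263093, B2m at chr2:122147437-122147686 and Tap1 at chr17:34187306-34187555 on the plus strand. Capitals mark 4 short motifs, found on either strand and chosen with the sequences in view. They include GAANNGAAA, a form of the core of an interferon response element, and GGGATTCCC, a palindromic kappa B site. The others are TGACG, the core of the X2 box, and CCAAT, the box bound by NF-Y.
H2-K1: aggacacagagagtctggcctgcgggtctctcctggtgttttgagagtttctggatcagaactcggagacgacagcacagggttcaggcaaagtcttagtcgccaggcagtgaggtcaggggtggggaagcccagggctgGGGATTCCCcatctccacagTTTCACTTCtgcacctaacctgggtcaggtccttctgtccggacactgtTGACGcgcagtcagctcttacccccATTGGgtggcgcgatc
H2-D1: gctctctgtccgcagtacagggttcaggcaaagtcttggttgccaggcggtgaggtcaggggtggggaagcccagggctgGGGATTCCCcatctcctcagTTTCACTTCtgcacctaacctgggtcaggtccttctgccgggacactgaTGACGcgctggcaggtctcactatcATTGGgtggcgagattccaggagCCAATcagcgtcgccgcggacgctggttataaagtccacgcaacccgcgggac
B2m: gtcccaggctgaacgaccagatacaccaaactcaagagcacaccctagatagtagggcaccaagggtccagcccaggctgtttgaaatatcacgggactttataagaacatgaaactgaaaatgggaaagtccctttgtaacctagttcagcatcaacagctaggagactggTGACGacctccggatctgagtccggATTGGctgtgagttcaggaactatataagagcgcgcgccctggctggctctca
Tap1: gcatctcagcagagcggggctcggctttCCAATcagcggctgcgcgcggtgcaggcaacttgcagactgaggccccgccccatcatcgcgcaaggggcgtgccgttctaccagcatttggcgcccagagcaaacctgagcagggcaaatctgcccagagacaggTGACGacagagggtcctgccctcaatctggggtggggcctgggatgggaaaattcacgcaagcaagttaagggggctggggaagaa

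H2-K1 and H2-D1 both held a kappa B palindrome, an interferon core on the opposite strand, a TGACG and an inverted CCAAT, in that order. With H2-D1 shifted by 60 bases, 166 of 190 compared bases were identical (87.4%). B2m held the TGACG and the inverted CCAAT only. The RefSeq starts of Tap1 and Psmb9 lie 226 bases apart on opposite strands, so 225 of the 250 bases printed for Tap1 also precede that start of Psmb9. In the GENCODE annotation Psmb9 starts further upstream and overlaps Tap1, so there the printed stretch lies within the Psmb9 gene. Among the 8 genes of the set with an entry in the promoter table, the kappa B palindrome and the interferon core were each found in 2, TGACG in 5 and CCAAT in 6. The same letters were found in 0.311%, 6.34%, 17.9% and 34.5% of 27025 promoters of that length. Tap2 and Nlrc5 had no entry. The promoters are not separate in these counts. The TGACG and the CCAAT of Tap1 are the same sites as those of Psmb9 and are counted for both genes. The kappa B and interferon matches lie in the stretch that is alike in H2-K1 and H2-D1. A match is a string of letters and not a measured binding site, and other spellings of these motifs were not searched.

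The spleen was recognisable in every library by its B cell and red pulp macrophage markers (summed 634 to 2956 and 610 to 1328 RPKM, reads scaled to transcript length and to the mapped reads of the library), and 0 of the listed markers of either type were at 0 throughout. The library A10-FMT replicate 3 stood apart. It had the lowest summed T cell markers (107 RPKM against 254 to 550 in the other 17 libraries), the lowest B cell markers, the highest erythroid markers (5148 against 906 to 3181) and the highest globin share of summed RPKM (42.7%). Con replicate 1 held 15000 RPKM of neutrophil markers, and markers of exocrine pancreas (14700 RPKM in A10-FMT replicate 2), liver and testis were present at uneven levels. The table holds no read counts, but the steps between low values correspond to about 12000000 to 13600000 reads a library, which puts at least 496 reads behind each value of the 10 genes (Nlrc5 in A10-FMT replicate 3, a counting error of 4.5%).

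All 10 genes passed the filter of 1 RPKM in 3 libraries that left 12905 genes for testing, and their levels were far apart. B2m was the most abundant, at a mean of 2229 RPKM over the 18 libraries and rank 37 of 19320 genes. H2-D1 followed at 1255 RPKM (rank 80) and H2-K1 at 769 RPKM (rank 112). The immunoproteasome subunits spread out below them, with Psmb8 at 160.0 RPKM, Psmb9 at 114 and Psmb10 at 54.0. Tapbp, Tap1 and Tap2 lay close together at 66.0, 57.2 and 51.4 RPKM, and Nlrc5 was the lowest at 12.8 RPKM (rank 6083). RPKM is set per length, so these levels can be compared between genes. B2m was above H2-D1, H2-K1 above Psmb8, Psmb8 above Psmb9, Psmb9 above Tapbp and Tap2 above Nlrc5 in 18 of 18 libraries. H2-D1 was above H2-K1, and Tapbp above Tap1, in 17. Tap1 over Psmb10 and Psmb10 over Tap2 held in only 11 of 18 libraries each, so the order of these neighbours was not separated from the spread.

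Part of the transcript of several of these genes cannot be told apart from that of a neighbour or relative. Of the 50-base words in the longest coding transcript, 14.3% in H2-D1 and 8.79% in H2-K1 also occur in other genes, for H2-D1 mainly H2-Q1 and for H2-K1 mainly H2-D1. Psmb9 shares 12.5% of its 50-base words with Tap1, whose 5' end it overlaps by 212 bases on the opposite strand in the GENCODE annotation. Tapbp shares 21% (mainly with Gm19412), Tap2 12.6% and Psmb8 5.83%, whereas B2m, Psmb10 and Nlrc5 share 0%. The reads are not stated to keep the strand.

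H2-K1, one of the classical heavy chains, was at 579.95, 805 and 679 RPKM in Con and at 1106, 943 and 1089.9 RPKM in A10. It was at 731, 591 and 618 RPKM in STZ and at 1036, 643 and 760.1 RPKM in STZ-A10. In A10-FMT the libraries held 605, 725 and 303 RPKM, and in Con-FMT 968, 851 and 799.9 RPKM. Every A10 library was above every Con library, and every A10-FMT library was below every Con-FMT library.

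H2-D1, the other classical heavy chain measured, was at 1082, 1019 and 1266 RPKM in Con and at 1030.3, 1408 and 1930.3 RPKM in A10. STZ held 1383, 1156 and 1206 RPKM and STZ-A10 1399.5, 1181 and 1382 RPKM. A10-FMT held 1112, 1374 and 612 RPKM and Con-FMT 1450.1, 1182 and 1409 RPKM. For this gene A10 overlapped Con, since A10 replicate 1 lay within the range of Con, and A10-FMT overlapped Con-FMT.

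B2m, the invariant light chain, was at 1783, 2355 and 2325 RPKM in Con and at 2644, 2432 and 3325 RPKM in A10. It was at 2186, 1860.3 and 2151 RPKM in STZ and at 2573, 1792 and 2124 RPKM in STZ-A10. A10-FMT held 1943, 2199 and 1280.5 RPKM and Con-FMT 2535, 2304 and 2312 RPKM. The groups were separated as for H2-K1, A10 above Con and A10-FMT below Con-FMT, though by less.

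Tap1, the first chain of the peptide transporter, was at 44.6, 53.4 and 51.4 RPKM in Con and at 80.5, 61.8 and 87.5 RPKM in A10. It was at 69.4, 49.6 and 53.1 RPKM in STZ, and at 76.7, 57.2 and 51.1 RPKM in STZ-A10. In A10-FMT it was at 39.0, 53.1 and 21.1 RPKM, and in Con-FMT at 67.0, 60.4 and 52.9 RPKM. A10 did not overlap Con, whereas A10-FMT replicate 2 reached just above the lowest Con-FMT library.

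Tap2, its partner chain, was at 40.0, 50.2 and 46.5 RPKM in Con and at 65.7, 60.4 and 64.2 RPKM in A10. STZ held 58.9, 42.9 and 45.3 RPKM and STZ-A10 71.5, 46.8 and 48.5 RPKM. A10-FMT held 37.9, 51.4 and 20.6 RPKM and Con-FMT 64.5, 55.2 and 54.9 RPKM. Both pairs of groups were separated, and the highest value of Tap2 was in STZ-A10 replicate 1.

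Tapbp was at 53.0, 70.8 and 81.8 RPKM in Con and at 93.1, 70.8 and 97.6 RPKM in A10, which overlapped. It was at 64.6, 51.9 and 56.1 RPKM in STZ and at 84.5, 59.3 and 62.9 RPKM in STZ-A10. A10-FMT held 44.0, 57.5 and 28.1 RPKM and Con-FMT 77.2, 71.6 and 62.9 RPKM. The A10-FMT libraries all lay below the Con-FMT libraries.

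Psmb8, the immunoproteasome counterpart of Psmb5, was at 125, 158 and 147 RPKM in Con and at 219.9, 192 and 244 RPKM in A10. STZ held 189, 118 and 126 RPKM, and STZ-A10 211, 151 and 137 RPKM. A10-FMT held 119, 163 and 54.3 RPKM and Con-FMT 189, 173 and 164 RPKM. The 163 RPKM of A10-FMT replicate 2 was just under the lowest Con-FMT library, and A10-FMT replicate 3 was at less than any other library.

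Psmb9, which replaces Psmb6, was at 98.5, 116 and 97.2 RPKM in Con and at 176, 157 and 176 RPKM in A10. It was at 109, 81.6 and 94.1 RPKM in STZ and at 135, 93.8 and 95.6 RPKM in STZ-A10. A10-FMT held 88.0, 112 and 42.2 RPKM and Con-FMT 132, 131 and 116 RPKM. Both pairs of groups were separated, and the gap between A10 and Con was wider than the range of either group.

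Psmb10, which replaces Psmb7, was at 53.6, 61.3 and 53.9 RPKM in Con and at 69.8, 64.5 and 77.5 RPKM in A10. STZ held 56.9, 39.5 and 48.0 RPKM and STZ-A10 58.0, 42.6 and 44.6 RPKM. A10-FMT held 45.8, 58.6 and 28.5 RPKM and Con-FMT 61.3, 57.5 and 49.9 RPKM. A10 lay above Con for this gene, and A10-FMT overlapped Con-FMT.

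Nlrc5, the transactivator of class I genes, was at 8.30, 12.3 and 10.1 RPKM in Con and at 19.4, 15.9 and 21.4 RPKM in A10. It was at 12.9, 9.84 and 13.7 RPKM in STZ and at 17.8, 12.4 and 11.3 RPKM in STZ-A10. A10-FMT held 8.04, 11.2 and 4.81 RPKM and Con-FMT 14.3, 13.9 and 12.9 RPKM. A10 was above Con and A10-FMT below Con-FMT in every library, and STZ overlapped Con.

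**Figure D1:**
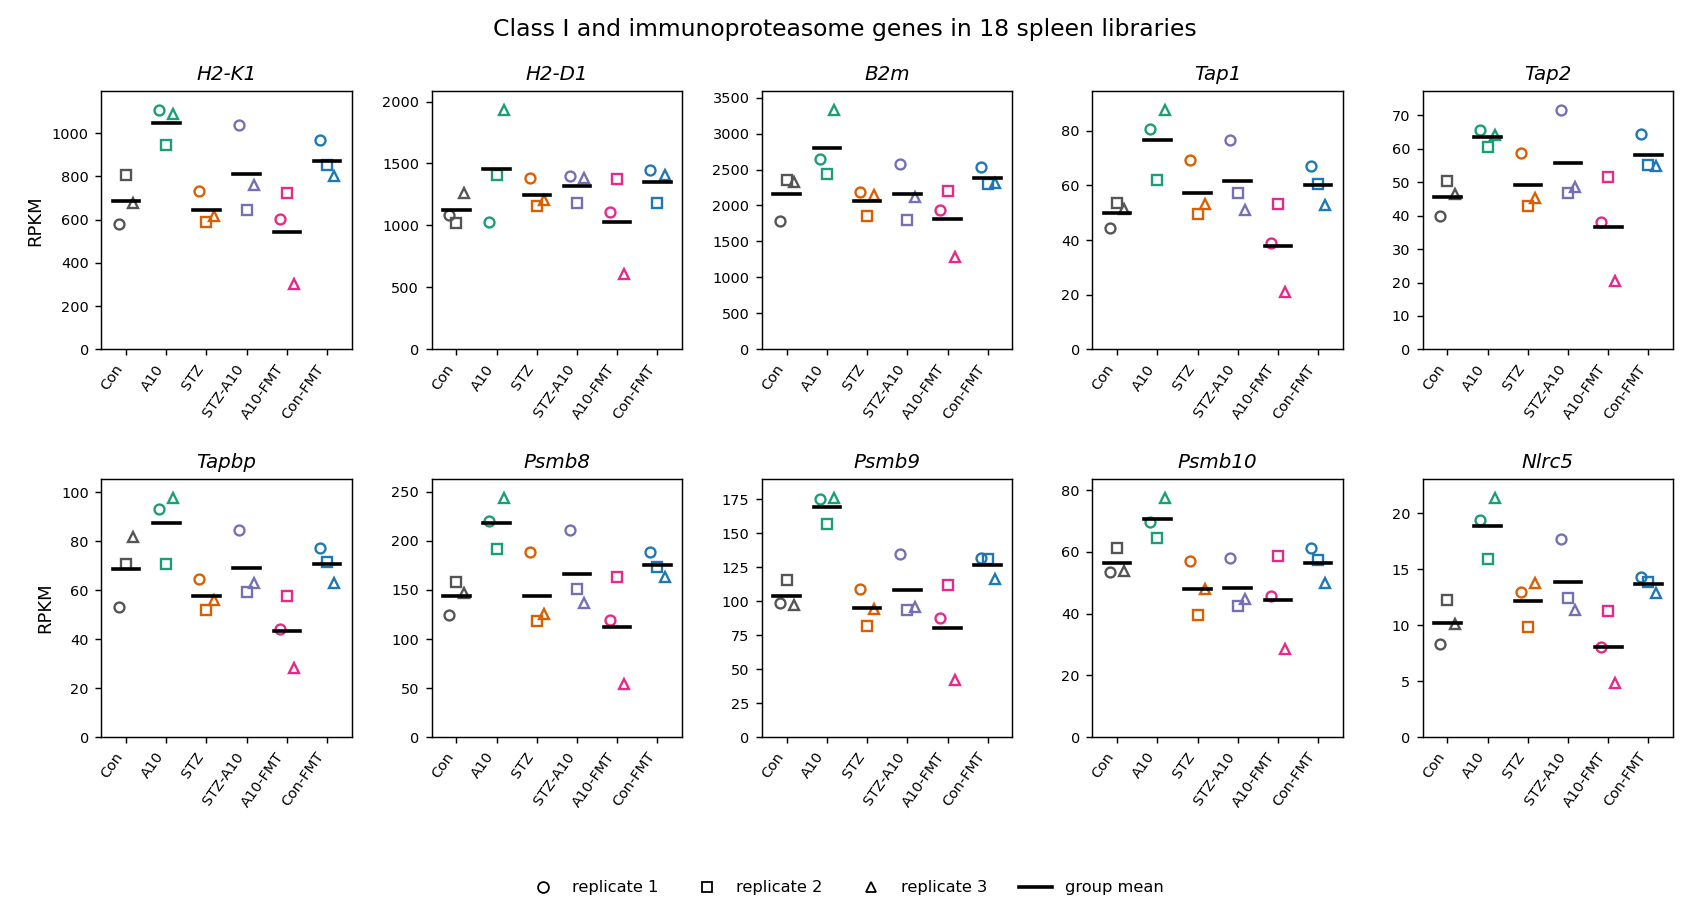
RPKM of the 10 genes (y axes, from 0) in the 6 groups (x axes), with a symbol for each of 3 libraries and a bar for the group mean. The A10 mean is the highest and the A10-FMT mean the lowest in 10 of 10 panels, and A10-FMT replicate 3 is the lowest library in each.

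The plot of RPKM by group shows 1 order for the whole set at its ends. The A10 group had the highest mean and the A10-FMT group the lowest for 10 of 10 genes, with folds between these means from 1.41 (H2-D1) to 2.35 (Nlrc5). Of the libraries, A10-FMT replicate 3 was the lowest for 10 of 10 genes. A10 replicate 3 was the highest for 8, A10 replicate 1 for H2-K1 and STZ-A10 replicate 1 for Tap2. The mean log2(RPKM + 1) of the 10 genes was 7.63 ± 0.17 (SD, n = 3) in A10, 7.35 ± 0.11 in Con-FMT, 7.25 ± 0.27 in STZ-A10, 7.11 ± 0.16 in Con, 7.10 ± 0.20 in STZ and 6.69 ± 0.61 in A10-FMT. The lowest A10 library (7.468) and the highest Con-FMT library (7.466) were next to each other, and each of the other neighbours in this order overlapped. In bulk tissue, fewer cells of a type and less RNA per cell cannot be told apart. Tests were made with limma on log2(RPKM + 1), in 1 model over all 18 libraries, and p-values were adjusted over the 12905 genes by the Benjamini-Hochberg method. In the test for any difference among the 6 groups 0 of the 10 genes passed the adjusted threshold of 0.05, against 0.449% of all genes (lowest adjusted p 0.0978, Nlrc5). Before adjustment 8 of 10 had a p under 0.05, all but H2-D1 and B2m, against 22.6% of all genes.

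A10 was compared with Con to ask what AOS does in animals without diabetes. All 10 genes had a positive log2 fold change, from 0.32 in Psmb10 to 0.83 in Nlrc5, with a median of 0.54 where the median of all tested genes was 0.05. None passed the adjusted threshold, as only 0.00775% of all genes did. An unadjusted p under 0.05 was reached by 4 genes, all higher in A10, against 3.56% of all genes in that direction. They were Nlrc5 (log2 fold change 0.83, SE 0.23, adjusted p 0.46), Psmb9 (0.71, SE 0.25, adjusted p 0.716), H2-K1 (0.61, SE 0.25, adjusted p 0.833) and Tap1 (0.60, SE 0.25, adjusted p 0.866). The A10 libraries lay above all Con libraries for 8 genes, all but H2-D1 and Tapbp, against 11.7% of all genes. The direction of the 10 genes was the same under quantile normalization, median centring and scaling without globin. When 1 library was left out, the count of 4 ran from 2 (without Con replicate 1, Con replicate 3 or A10 replicate 3) to 8 (without A10-FMT replicate 3, which enters this comparison only through the shared spread). In these fits, in order, 3.99%, 7%, 2.58% and 7.33% of all genes had an unadjusted p under 0.05, in either direction. With array weights, which give less weight to libraries that stand apart, 6 genes passed the adjusted threshold, as did 10.3% of all genes. Before adjustment 10 of 10 were under 0.05 with these weights, as were 28.7% of all genes. T cell markers had positive log2 fold changes in 12 of 12 (median 0.37), 0 of them at an unadjusted p under 0.05, with sums of 504 to 550 RPKM in A10 and 285 to 507 in Con. The erythroid markers had negative values in 9 of 9 tested (median -0.63), again 0 at that threshold, with 1120 to 1648 RPKM in A10 and 1713 to 2769 in Con. Neutrophil markers were lower in 10 of 10 at an unadjusted p under 0.05 (median -1.95), with 15000, 4094 and 794 RPKM in Con and 557 to 1424 in A10, and testis germ cell markers in 4 of 4 tested (median -3.19). The part of these cells in the class I levels was not tested.

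A10-FMT was compared with Con-FMT to set apart what the AOS-treated donor adds to a transplant. All 10 genes had a negative log2 fold change, from -0.78 in Psmb8 to -0.39 in Psmb10, with a median of -0.75 where the median of all tested genes was -0.17. With each library centred on its own median gene, the median of the 10 genes was -0.57 and 10 of 10 stayed negative. None passed the adjusted threshold, which 0% of all genes did. At an unadjusted p under 0.05, 8 genes were lower in A10-FMT, all but H2-D1 and Psmb10, against 20.1% of all genes. Tapbp (log2 fold change -0.75, SE 0.23) and Nlrc5 (-0.77, SE 0.23) had the lowest p, 0.00457 and 0.00459 before and 0.204 after adjustment. The libraries did not overlap for 7 genes, all but H2-D1, Tap1 and Psmb10, against 23.9% of all genes. The size rested on single libraries. Without A10-FMT replicate 3 the median was -0.37 and only Tapbp and Nlrc5 kept an unadjusted p under 0.05. In that fit 3.64% of all genes had one, in either direction. Without A10-FMT replicate 2, whose class I levels were the highest of its group, the median was -1.02 and 8 genes passed the adjusted threshold, all but H2-D1 and B2m, as did 20.3% of all genes. With array weights 9 genes passed it, all but H2-D1, as did 47.0% of all genes. T cell markers moved with the set. All 12 were lower at an unadjusted p under 0.05 (median -0.96), with sums of 107 to 393 RPKM where Con-FMT had 436 to 479. B cell markers had negative values in 10 of 10 (median -0.77, 4 at that threshold), and NK cell markers in 7 of 7 (median -0.58, 5 at that threshold). Erythroid markers had positive values in 9 of 9 (median 0.80, 2 at that threshold), with 2222 to 5148 RPKM against 1790 to 2071. Liver markers were higher at that threshold in 6 of 8 (median 2.27). The part of these cells in the difference was not tested.

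**Figure D2:**
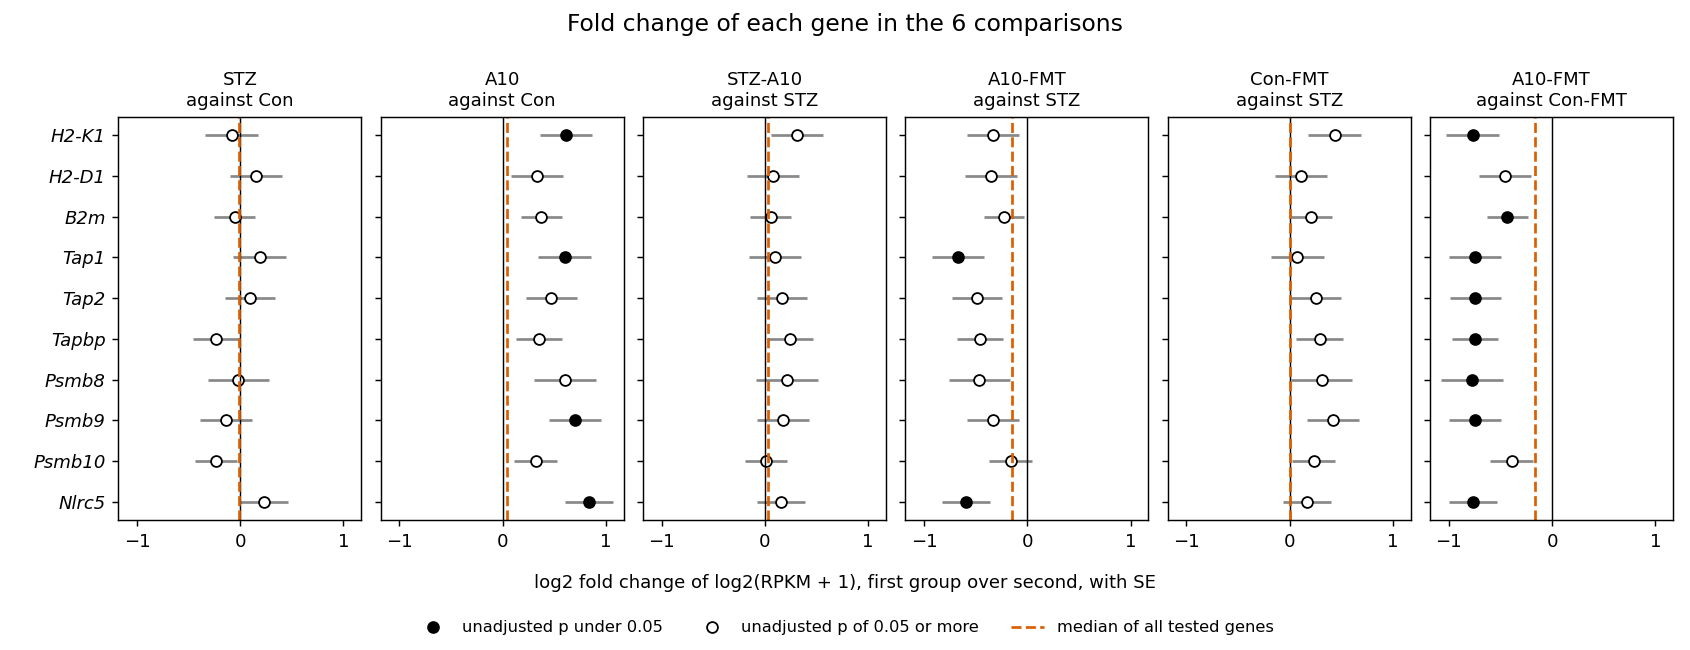
Log2 fold change of log2(RPKM + 1) (x axes, first group over second, bars of 1 SE) of the 10 genes (y axis) in the 6 comparisons. Filled points have an unadjusted p under 0.05, which 4 genes reach in A10 against Con, 2 in A10-FMT against STZ and 8 in A10-FMT against Con-FMT, and the dashed line is the median of all 12905 genes.

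Each transplant group was also compared with STZ, and the comparisons share the STZ libraries. In A10-FMT against STZ all 10 genes had negative values, from -0.67 in Tap1 to -0.16 in Psmb10, with a median of -0.40 against -0.15 for all genes, and Psmb10 turned to 0.01 under median centring. None passed the adjusted threshold, against 0.00775% of all genes. Tap1 (log2 fold change -0.67, SE 0.25, adjusted p 0.249) and Nlrc5 (-0.60, SE 0.23, adjusted p 0.255) had an unadjusted p under 0.05, 2 of 10 against 15.2% of all genes. Without A10-FMT replicate 3 the median was -0.01 and 0 genes had an unadjusted p under 0.05, where 7.93% of all genes did in either direction. Without A10-FMT replicate 2 the median was -0.65 and 8 genes did, as did 33.3% of all genes. Without STZ replicate 1 the number was 0 again (6.75% of all genes), and with array weights the median was -0.06. In Con-FMT against STZ all 10 values were positive, from 0.08 in Tap1 to 0.43 in H2-K1, with a median of 0.24 against 0.00 for all genes. None passed the threshold before or after adjustment, against 5.24% and 0.00775% of all genes. H2-K1, B2m and Psmb9 did not overlap between Con-FMT and STZ, 3 of 10 against 6.94% of all genes. With array weights H2-K1, Tapbp, Psmb8, Psmb9 and Psmb10 passed the adjusted threshold, as did 18.3% of all genes. T cell markers had positive values in 12 of 12 in Con-FMT against STZ (median 0.54) and negative values in 12 of 12 in A10-FMT against STZ (median -0.42), with 0 at an unadjusted p under 0.05 in either. Red pulp macrophage markers were lower at that threshold in 7 of 10 in A10-FMT (median -0.49) and in 4 of 10 in Con-FMT (median -0.27). Liver markers were higher in A10-FMT in 6 of 8 (median 3.08), and NK cell markers in Con-FMT in 4 of 7 (median 0.54). The part of these cells in the class I values was not tested.

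The effect of STZ alone on these genes was read from STZ against Con. The 10 genes lay on both sides of 0, 4 higher and 6 lower, from -0.23 in Psmb10 and Tapbp to 0.23 in Nlrc5, with a median of -0.04. None passed the threshold before adjustment, where 11.1% of all genes did, or after it, where 0.163% did. With array weights Tapbp, Psmb9 and Psmb10 passed the adjusted threshold, as did 28.8% of all genes, and the median was -0.29. The 3 STZ libraries overlapped the 3 Con libraries for each of the 10 genes. The standard errors ran from 0.20 in B2m to 0.30 in Psmb8. T cell markers had negative values in 12 of 12 (median -0.35), 0 of them at an unadjusted p under 0.05. At that threshold NK cell markers were lower in STZ in 5 of 7 (median -0.71), neutrophil markers lower in 9 of 10 (median -2.11), liver markers lower in 6 of 8 (median -2.78) and red pulp macrophage markers higher in 6 of 10 (median 0.38). Testis germ cell markers were lower in 4 of 4 tested (median -2.73, 1 past the adjusted threshold) and adipose markers in 5 of 5 tested (median -1.86). Exocrine pancreas markers were higher in 3 of 8 (median 3.12). B cell markers were lower in 1 of 10 and dendritic cell markers in 1 of 7. The part of these cells in the class I values was not tested.

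STZ-A10 was compared with STZ to ask what AOS does in diabetic animals. The log2 fold changes were positive for 10 of 10 genes but small, from 0.01 in Psmb10 to 0.31 in H2-K1, with a median of 0.16 against 0.03 for all genes. Psmb10 was below 0 under median centring and under scaling without globin. None passed the threshold before adjustment (2.93% of all genes did) or after it (0.00775%). Without STZ-A10 replicate 1, the highest library of its group for 10 of 10 genes, the median was -0.01 and only 5 of 10 values stayed positive. That library also had a low globin share (13.7%) and low erythroid markers (906 RPKM), and the part of these in its class I levels was not tested. The interaction of STZ and AOS, which asks whether the difference made by AOS is the same with and without STZ, was negative for 10 of 10 genes, with a median of -0.32. It passed the threshold for 0 genes before adjustment (2.86% of all genes did) and for 0 after it (0%). Nlrc5 had the largest value, -0.67 (SE 0.33), so a smaller difference in diabetic animals was not separated from no interaction at this number of libraries.

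A ratio within a library does not depend on how the library was scaled. Psmb8 was above Psmb5 in 17 of 18 libraries, with a median log2 ratio of 0.94, and Psmb9 above Psmb6 in 15, with a median of 0.49. Psmb10 was below Psmb7 in all 18, with a median of -0.96. The log2 ratio of Psmb8 to Psmb5 was 0.45, 0.89 and 1.18 in Con, 1.44, 1.21 and 1.53 in A10, 1.02, 0.51 and 0.64 in STZ and 1.20, 1.12 and 0.84 in STZ-A10. It was 0.39, 0.95 and -0.81 in A10-FMT and 1.02, 0.94 and 0.92 in Con-FMT. For Psmb9 to Psmb6 the values were 0.17, 0.50 and 0.58 in Con, 0.89, 0.79 and 0.96 in A10, 0.24, -0.09 and 0.32 in STZ, 0.66, 0.23 and 0.48 in STZ-A10, -0.05, 0.37 and -1.23 in A10-FMT and 0.55, 0.64 and 0.50 in Con-FMT. The highest library was A10 replicate 3 and the lowest A10-FMT replicate 3 for all of the 3 ratios. Psmb10 to Psmb7 ran from -2.58 in A10-FMT replicate 3 to -0.51 in A10 replicate 3.

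The constitutive subunits were measured in the same libraries. Psmb5 was at 80.2 ± 14.1 RPKM (SD, n = 3) in Con, 82.2 ± 1.57 in A10, 90.2 ± 5.75 in A10-FMT and 89.6 ± 3.54 in Con-FMT. Psmb6 was at 78.1 ± 11.8 in Con and 91.6 ± 2.27 in A10, and at 92.5 ± 6.94 in A10-FMT and 85.1 ± 4.15 in Con-FMT. Psmb7 reached 141 ± 30.1 RPKM in A10-FMT where Con-FMT had 108 ± 4.16, a difference of 0.37 on the log2 scale (SE 0.12, adjusted p 0.204) that was opposite in sign to Psmb10. The ratios were compared between groups with an exact two-sided permutation test, which cannot go below 0.1 with 3 libraries against 3. This smallest p was reached in 4 of 18 tests. Psmb8 to Psmb5 was higher in A10 than in Con by 0.55 (0.36 without Con replicate 1) and Psmb9 to Psmb6 by 0.47. Psmb9 to Psmb6 was also higher in Con-FMT than in STZ by 0.41, and lower in A10-FMT than in Con-FMT by a difference of -0.87, which was -0.40 without A10-FMT replicate 3. After adjustment over the 18 tests the p-values were 0.415 to 0.8, so none of these differences passed the threshold.

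**Figure D3:**
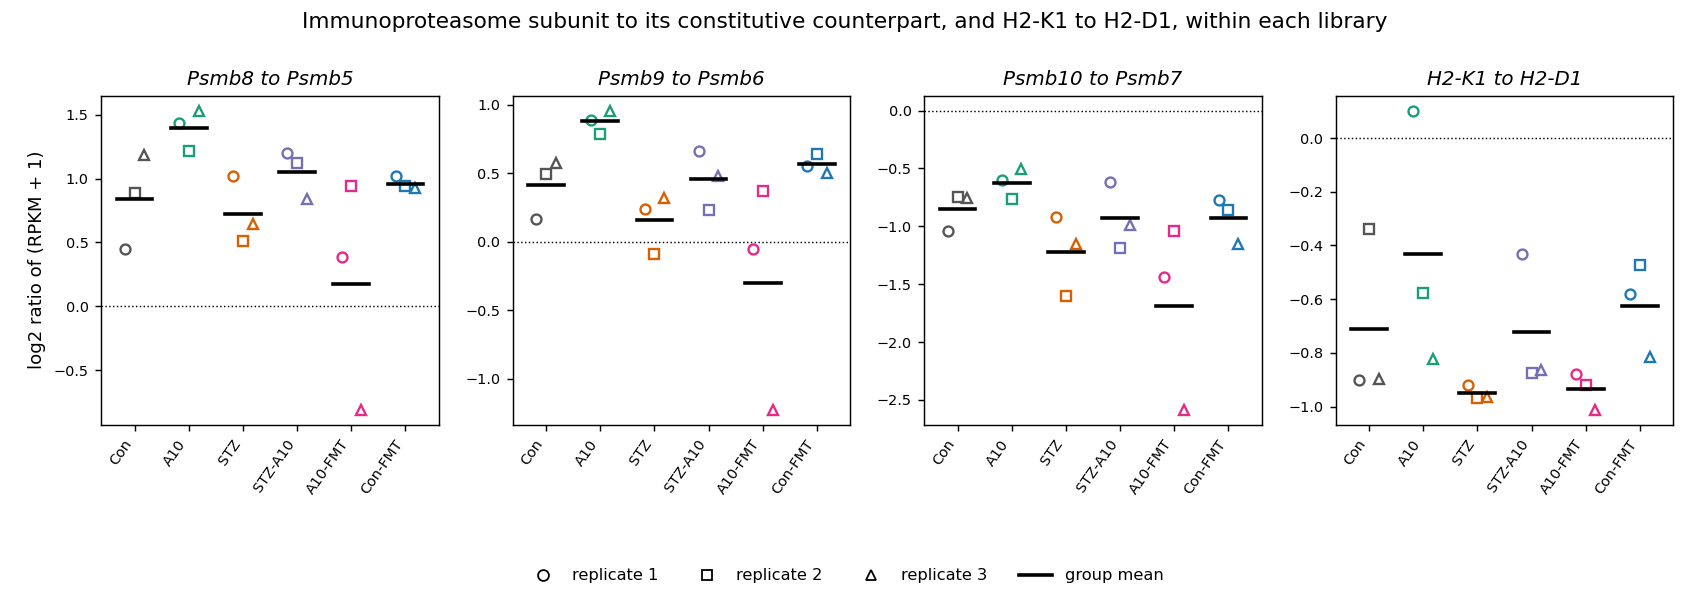
Log2 ratio of (RPKM + 1) within each library (y axes) for each immunoproteasome subunit over the constitutive subunit it replaces and for H2-K1 over H2-D1, by group (x axes), with a symbol per library and a bar for the group mean. The 3 A10 libraries lie above the 3 Con libraries for Psmb8 to Psmb5 and Psmb9 to Psmb6, and A10-FMT replicate 3 is the lowest library in all 4 panels.

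H2-K1 and H2-D1 did not keep a fixed ratio to each other. The log2 ratio of H2-K1 to H2-D1 was -0.90, -0.34 and -0.90 in Con, 0.10, -0.58 and -0.82 in A10 and -0.92, -0.97 and -0.97 in STZ. It was -0.43, -0.88 and -0.86 in STZ-A10, -0.88, -0.92 and -1.01 in A10-FMT and -0.58, -0.47 and -0.82 in Con-FMT. Only in A10 replicate 1 was H2-K1 the higher of the pair. That library had the lowest log2 ratio of H2-D1 to B2m (-1.36, against a median of -0.80) and the highest of H2-K1 to B2m (-1.26, against a median of -1.56). The standard deviation of the ratio within groups was 0.03 (STZ) to 0.48 (A10). The part of alleles, and of the reads these genes share with relatives, was not tested.

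The 10 genes moved together from library to library. Over the 18 libraries Pearson's r between pairs of them ran from 0.68 (H2-D1 and Psmb10) to 0.98, with a median of 0.92 over 45 pairs. With the group means removed the median was 0.90. Without A10-FMT replicate 3 the median was 0.84 and the lowest 0.37. These are descriptions over libraries that share scaling and tissue make-up. H2-D1 was a partner in the least correlated pair each time. The 5 genes outside the set most like its standardised mean, of 9353 with a mean of at least 5 RPKM, were Psme1 (r = 0.983 over 18 libraries), Syvn1 (0.967), Gbp3 (0.967), Rnaset2a (0.966) and Trabd (0.966). Psme1 encodes a subunit of PA28, a cap that opens the proteasome and is induced by interferon, and Gbp3 is an interferon-induced GTPase. Syvn1 is a ubiquitin ligase of the endoplasmic reticulum.

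The mean level of the 10 genes also went with several of the summed cell type markers, which are RNA levels and not cell counts. Its r over the 18 libraries was 0.92 with the summed T cell markers, 0.89 with B cell markers, 0.87 with dendritic cell markers and 0.72 with NK cell markers. It was -0.84 with erythroid markers and -0.71 with the globin share. It was 0.45 with red pulp macrophage markers, -0.12 with neutrophil markers and -0.07 with exocrine pancreas markers. Without A10-FMT replicate 3 the values for T cells, B cells and erythroid cells were 0.81, 0.71 and -0.80, and within groups 0.93, 0.91 and -0.77. The part of cell make-up in the class I levels was not tested.

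**Figure D4:**
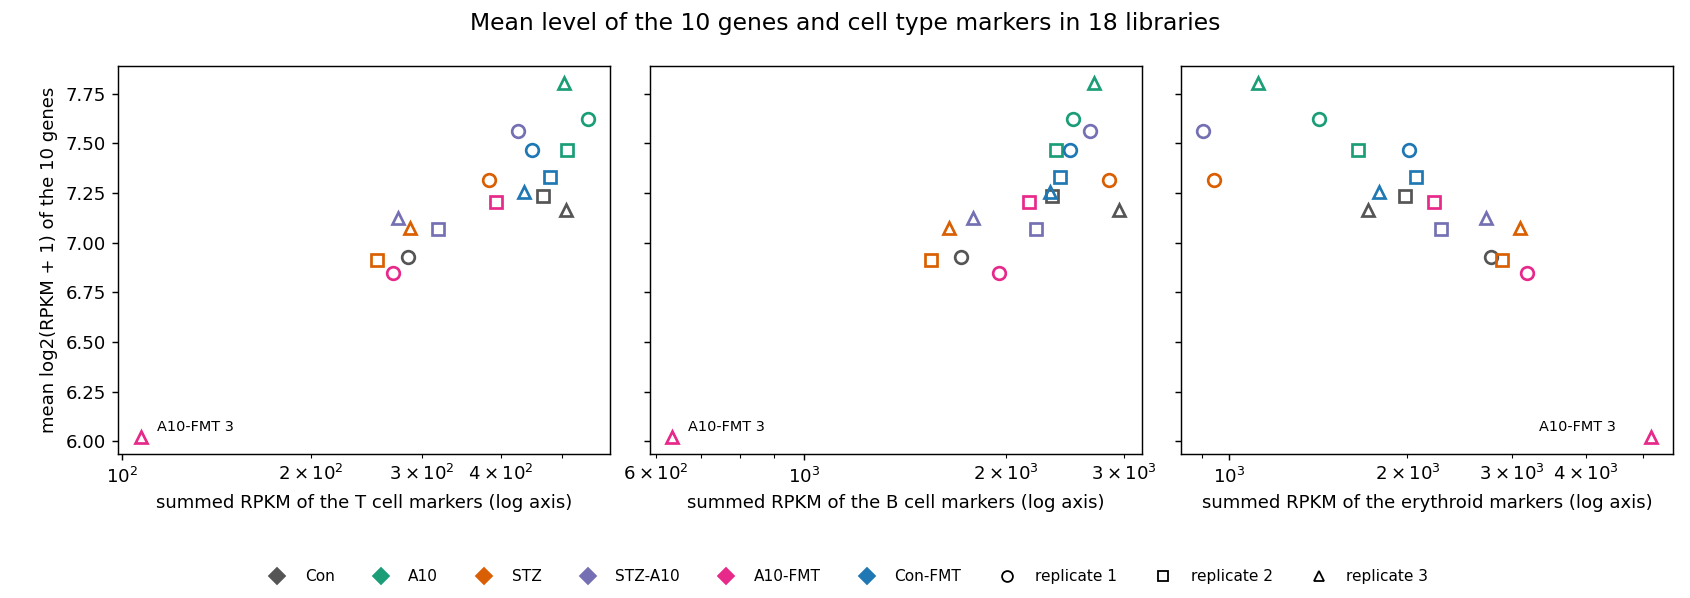
Mean log2(RPKM + 1) of the 10 genes (y axis) against the summed RPKM of T cell, B cell and erythroid markers (x axes, log scale), 1 point per library, with colour for the group and symbol for the replicate. The mean is high where T and B cell markers are high and low where erythroid markers are high, with A10-FMT replicate 3 at the end of each panel (mean 6.02).

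The rest of the pathway was read from 6 lists, and 0 genes of any list passed the adjusted threshold in any of the 6 comparisons or the interaction. Among the other class I heavy chains, which include the nonclassical H2-Q, H2-T and H2-M genes, 17 of 20 listed were tested. At an unadjusted p under 0.05, 7 of 17 were higher in A10 than in Con (median 0.44), against 3.56% of all genes, and 12 of 17 were lower in A10-FMT than in Con-FMT (median -0.60), against 20.1% of all genes. At that threshold 0 lay on the other side. H2-Q6 had the largest differences of the list in both comparisons of A10-FMT, -1.27 (SE 0.33) against Con-FMT and -1.21 (SE 0.33) against STZ, and was at 0.74 (SE 0.33) in A10 against Con, where H2-T22, named after its value was seen, was the highest at 0.97 (SE 0.43). Its RPKM was 26.5, 14.1 and 29.3 in Con, 24.1, 38.5 and 58.6 in A10, 10.3, 25.3 and 11.8 in A10-FMT and 36.3, 33.8 and 40.2 in Con-FMT. H2-Q4 was at 88.9 ± 10.1 RPKM (SD, n = 3) in Con, 143 ± 15.1 in A10, 80.4 ± 31.2 in A10-FMT and 131 ± 18.3 in Con-FMT. H2-Bl had 0.42 ± 0.14 RPKM in A10-FMT where STZ had 0.95 ± 0.29, a level at which few reads count. Without Con-FMT replicate 1, 3 heavy chains had an unadjusted p under 0.05 in A10-FMT against Con-FMT, as did 14.8% of all genes. The number was 4 without A10-FMT replicate 3 (3.64%), 5 under median centring (18.9%) and 14 without A10-FMT replicate 2 (42.9%). In A10 against Con the number was 3 in place of 7 without Con replicate 1 (3.99%). These numbers of heavy chains and shares of all genes in the altered fits count either direction.

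Of the PA28 subunits, Psme1 and Psme2 were higher in A10 than in Con, at 242 ± 27.8 RPKM (SD, n = 3) against 178 ± 12.8 and at 262 ± 24.8 against 184 ± 24.9. Their log2 fold changes were 0.44 (SE 0.20) and 0.51 (SE 0.16), with unadjusted p under 0.05 and adjusted p 0.92 and 0.657. In A10-FMT against Con-FMT, Psme1 was at -0.49 (SE 0.20, adjusted p 0.204) and Psme2 at -0.32 (SE 0.16, adjusted p 0.225), and Psme4, a different cap chosen for mention after its value was seen, was on the other side at 0.41. Psme3, the remaining PA28 subunit and also named after its values were seen, was at 0.42 (SE 0.21, adjusted p 0.23) in A10-FMT against Con-FMT and at -0.19 (SE 0.21, adjusted p 0.989) in A10 against Con. It was opposite in sign to Psme1 and Psme2 in both, with an unadjusted p above 0.05. The 14 other genes of the 20S core and its assembly lay between -0.10 and 0.34 in that comparison, where 12 of 14 were positive. Psma1 and Psma5 had an unadjusted p under 0.05 and were higher in A10-FMT, and Psma5 was chosen after its value was seen. Psma1 had 131 ± 27.9 RPKM in A10-FMT where Con-FMT had 104 ± 7.84. The 3 immunoproteasome subunits all had negative values in that comparison. The core subunit Psmb3 and the assembly gene Psmg2 were higher in STZ than in Con, by 0.23 and 0.30, at an unadjusted p under 0.05.

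Of the 14 peptide loading genes, 1 was lower in A10-FMT than in Con-FMT at an unadjusted p under 0.05 (Tapbpl, a relative of tapasin, at -0.62), against 20.1% of all genes. In A10 against Con 3 of 14 were higher (Tapbpl, Sec61a1 and Sec61b, at 0.53, 0.42 and 0.45), against 3.56% of all genes. These genes were named after their values were seen. In STZ against Con, Npepps, a cytosolic aminopeptidase, and Pdia3, a chaperone of class I folding, were lower at an unadjusted p under 0.05, by -0.30 each (adjusted p 0.26 and 0.285). Npepps was at 18.5 ± 1.45 RPKM in the STZ libraries and 23 ± 0.97 in those of Con (SD, n = 3), and Pdia3 at 157 ± 24.1 and 193 ± 18.2.

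Of the 22 regulators, 11 were lower in A10-FMT than in Con-FMT at an unadjusted p under 0.05 and 0 higher, against 20.1% of all genes lower, with a median of -0.38 where that of all genes was -0.17. Irf1, a transcription factor induced by interferon, was at 36.5 ± 14.5 RPKM (SD, n = 3) against 56.6 ± 1.90, which is -0.70 on the log2 scale (SE 0.23, adjusted p 0.204). Ciita, the class II counterpart of Nlrc5, was at 22.4 ± 9.11 against 35.1 ± 2.35 (-0.71, SE 0.28, adjusted p 0.204). Rfx5, a subunit of the RFX complex, was at 12.5 ± 6.03 against 16.9 ± 0.10 (-0.52, SE 0.28, adjusted p 0.239). Its unadjusted p was above 0.05, so Rfx5 is not among the 11. Without A10-FMT replicate 3, 1 regulator in place of 11 had an unadjusted p under 0.05, counted in either direction. In that fit 3.64% of all genes had an unadjusted p under 0.05, in either direction. In A10 against Con 2 of the 22 had an unadjusted p under 0.05, both higher, against 3.56% of all genes. Of these Socs1, a feedback inhibitor of cytokine signalling named after its value was seen, was at 0.81 (SE 0.25, adjusted p 0.653). Irf1 was at 0.41 (SE 0.23), Rfx5 at 0.23 (SE 0.28) and Ciita at 0.20 (SE 0.28) in that comparison.

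Ifng, the interferon itself, was at 0.68, 1.15 and 1.88 RPKM in Con and at 1.25, 1.68 and 1.89 in A10. It was at 0.26, 0.56 and 0.68 RPKM in STZ, 0.90, 0.32 and 0.57 in STZ-A10, 0.74, 0.89 and 0.29 in A10-FMT and 0.75, 0.90 and 0.78 in Con-FMT. Its log2 fold change in STZ against Con was -0.55 (SE 0.20, adjusted p 0.283) with an unadjusted p under 0.05. Ifng reached 1 RPKM only in libraries of Con and A10, so it passed the filter through groups where it was high. That selection favours a lower value in STZ, so this p-value is no support for one. The 10 class I genes lay on both sides of 0 in that comparison. Ifngr1, a chain of the receptor, had 44.7 ± 9.18 RPKM in A10-FMT where STZ had 76.6 ± 12.1 (SD, n = 3). The difference was -0.77 on the log2 scale (SE 0.17, adjusted p 0.118). Rela and Nfkb1, both subunits of NF-kappa B, were at -0.38 (SE 0.15, adjusted p 0.255) and -0.43 (SE 0.20, adjusted p 0.287) in A10-FMT against STZ.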

How the data were processed

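Spleen poly(A) RNA of 18 libraries was sequenced on an Illumina instrument, and the authors deposited 1 table of RPKM values for 19326 lines. Per the study's methods reads were mapped to reference genes and read numbers per gene were turned into RPKM. The submitters' processing notes name mm10 and Bowtie 0.12.2, and SOAPaligner is named in the methods, so the aligner used is not settled by the sources. The 6 lines of 3 repeated names were left out, which left 19320 genes. Groups came from the labels. The study's count-based test needs read counts, so values were tested as log2(RPKM + 1) with limma 3.58.1 in R 4.3.3 (trend, all 18 libraries in 1 model), on 12905 genes with at least 1 RPKM in at least 3 libraries, with Benjamini-Hochberg adjustment and a threshold of 0.05. Fold changes on this scale understate those of low genes. Ratios within a library were compared with an exact permutation test. The fit was tested on simulated data.

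The 10 genes and all lists were chosen with earlier results of these data known. All 10 are named. Of the pathway lists, up to 3 genes with the smallest unadjusted p under 0.05 were named in STZ against Con and in A10-FMT against STZ, 9 genes were to be named whatever their values (1 of them is not reported here), and other names are said to be chosen after their values were seen. Positions are from GENCODE M21 (GRCm38) and promoters from RefSeq (GRCm38.p6). Alternatives were another pseudocount, no filter, 3 scalings, no variance trend, fewer groups in the fit, array weights, a replicate block and leaving out each library.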

Additional observations from a re-analysis of the deposited data

How the results depend on the processing

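The median log2 fold change of the 10 genes kept its sign under every alternative run in A10 against Con (0.41 to 0.60), A10-FMT against Con-FMT (-1.02 to -0.37), A10-FMT against STZ (-0.65 to -0.01), Con-FMT against STZ (0.15 to 0.39) and the interaction (-0.50 to -0.20). It was on both sides of 0 in STZ against Con (-0.29 to 0.07) and in STZ-A10 against STZ (-0.01 to 0.26). Array weights changed the calls of the 10 genes: they called 3 of the 10 genes in STZ against Con, 6 in A10 against Con, 5 in Con-FMT against STZ, 9 in A10-FMT against Con-FMT and 9 in the test among the 6 groups (77.3% of all genes), where the reported fit called 0, and the median in STZ against Con was -0.29 in place of -0.04. They called 0 in STZ-A10 against STZ, A10-FMT against STZ and the interaction. The cause was not tested. Leaving out 1 library gave 0 to 8 called genes in A10-FMT against Con-FMT and 0 to 6 in the test among the 6 groups, in both cases the highest without A10-FMT replicate 2 (2625 of all genes, 20.3%, and 814, 6.31%). With only the groups compared in the fit, 4 genes in place of 8 had an unadjusted p under 0.05 in A10-FMT against Con-FMT. Of all genes 10.7% did.

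The replicate block called 0 of the 10 genes in each comparison. In A10-FMT against Con-FMT 7 in place of 8 had an unadjusted p under 0.05, as did 24.2% of all genes. Same-numbered libraries had correlations of their deviations from -0.385 to 0.571, with 3 of 18 over 0.1. Of these, 0.571 and 0.429 were in STZ-A10 against STZ (replicates 1 and 3) and 0.246 in A10-FMT against STZ (replicate 3). Whether same-numbered libraries share more than a number cannot be told from these values. At the depth estimated from low values, counting error was at most 4.5% of a value of the 10 genes, below the spread between libraries. This does not cover low genes such as Ifng and H2-Bl.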
